A study of Mus musculus with 6 samples.

Results

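DNA methylation marks cytosines that stand before a guanine, and in T cells its presence or absence at the control regions of Foxp3 is tied to how stably the gene is held on or off. Dnmt1 copies the marks onto the new strand after replication, brought to hemimethylated sites by Uhrf1, while Dnmt3a and Dnmt3b place marks on unmethylated DNA. Tet1, Tet2 and Tet3 oxidise methylcytosine, the glycosylase Tdg cuts out the most oxidised forms, and Mbd2 binds methylated sites and has been tied to TET activity at the Foxp3 enhancer. These 9 genes are described here. They were taken by symbol from a table of estimated RNA-seq counts with 26469 gene rows, all 9 had a row, and all 9 were among the 18323 genes that passed the filter on low counts. The measurements are of transcripts only, and no DNA methylation was measured.

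The data are 6 RNA libraries of mouse splenic CD4 T cells, 3 mutant and 3 control. The mutant libraries came from Sf3b1K700E/fl/Cd4Cre mice and are labelled Sf3b1 mutation. Sf3b1 is the splicing factor that binds the intron branch point, and K700E is its recurrent change in cancers. The control libraries came from Sf3b1K700E/fl mice without Cre and are labelled WT, so both groups carry the conditional allele. Cd4-Cre is switched on in the thymus, before CD4 and CD8 cells part, so the recombined allele is not restricted to regulatory T cells. Naive CD4 cells of both groups were held for 36 h in 5 ng/ml TGF-β with antibodies to CD3, CD28, IL-4 and IFNγ, which directs them towards regulatory T cells (Tregs). The labels do not say whether each library is a separate animal, so the p-values reflect the spread among these libraries alone, part of which may be technical. Gene counts do not show which transcript or allele a read came from, so they neither check the genotype nor show splicing.

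Library totals ran from 34524411 to 36867281 counts in mutant and from 33633157 to 43928682 in control libraries. Levels are given as CPM, a gene's count scaled to the size of its library. The T cell markers Cd3e, Cd3g, Cd4, Cd5, Cd28 and Lck summed to 1696 to 2430 CPM in mutant and 1432 to 2039 CPM in control libraries. All 6 were detected. B cell markers summed to 3.73 to 43.4 CPM in mutant and 1.94 to 5.17 CPM in control libraries, and none of the 6 markers was at 0 throughout. Cd79a, part of the B cell receptor, was at 1.84, 5.15 and 2.20 CPM in mutant 1, 2 and 3 and at 0.929, 0.467 and 0.826 CPM in control 1, 2 and 3. CD8 markers summed to 6.56 to 17.3 CPM in mutant and 5.81 to 40.4 CPM in control libraries. Myeloid, NK cell and dendritic cell marker lists each summed to at most 5.98 CPM in mutant and 5.81 CPM in control libraries. The part of other cells in the results was not tested. Of the 6 libraries, 2 stand apart. Control 1 had 3475 CPM of Xist and at most 0.029 CPM of Ddx3y, Eif2s3y, Kdm5d and Uty, the reverse of the other 5 libraries. Mutant 1 widened its group, whose biological coefficient of variation was 0.350 in mutant against 0.226 in control libraries and 0.236 over mutant 2 and mutant 3. In bulk RNA, fewer cells of a type and less RNA per cell cannot be told apart.

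Per kilobase of annotated exon, the maintenance genes were the most abundant of the 9 in both groups and Tet1 the least. Uhrf1 averaged 62.6 ± 16.7 CPM per kb in mutant and 82.1 ± 8.43 CPM per kb in control libraries, and Dnmt1 56.2 ± 4.76 and 72.2 ± 6.25 CPM per kb (SD, n = 3). Tet1 averaged 0.961 ± 0.365 CPM per kb in mutant and 1.76 ± 0.174 CPM per kb in control libraries. Between these extremes the order in mutant libraries was Mbd2 (37.8), Tdg (21.1), Tet3 (17.5), Dnmt3a (16.2), Tet2 (9.63) and Dnmt3b (7.93 CPM per kb). In control libraries it was Mbd2 (38.7), Tdg (22.8), Dnmt3a (17.6), Tet3 (13.0), Tet2 (9.45) and Dnmt3b (7.97 CPM per kb). Tet3 and Dnmt3a thus change places between the groups. The ranges of neighbours overlapped in 4 places of the mutant order, Uhrf1 with Dnmt1, Tdg with Tet3, Tet3 with Dnmt3a and Tet2 with Dnmt3b. In the control order only Uhrf1 and Dnmt1 overlapped, from 73.2 to 90.0 and from 65.9 to 78.4 CPM per kb. Lengths are the joined exons of all annotated transcripts of a gene, so a gene with long rare exons appears lower.

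The question set by the design is whether the level of these genes differs in cells with the mutation. No member passed edgeR's quasi-likelihood test at an adjusted p of 0.05, and neither did any of the 18323 genes tested (0%). At an unadjusted p under 0.05 there were 3 of 9 members, Tet1, Dnmt1 and Tet3, where 7.62% of all genes (1396) were below that value. Of the 9 members, 7 had a lower and 2 a higher fitted level in mutant cells, where 8639 of all 18323 genes were lower. Their median log2 fold change was -0.11 beside 0.024 over all genes tested. With single libraries left out, from 5 to 7 members were lower, 5 of them without mutant 1, mutant 2 or control 2. In Dnmt1 and Tet1 the mutant libraries all lay below the controls, as in 7.48% of all genes. In Tet3 they all lay above the controls, as in 6.60% of all genes. DESeq2 called 99 of the 15628 genes to which it gave an adjusted p (0.633%), and none was a member. Limma-voom called 0 genes, with 1299 at an unadjusted p under 0.05.

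**Figure D1:**
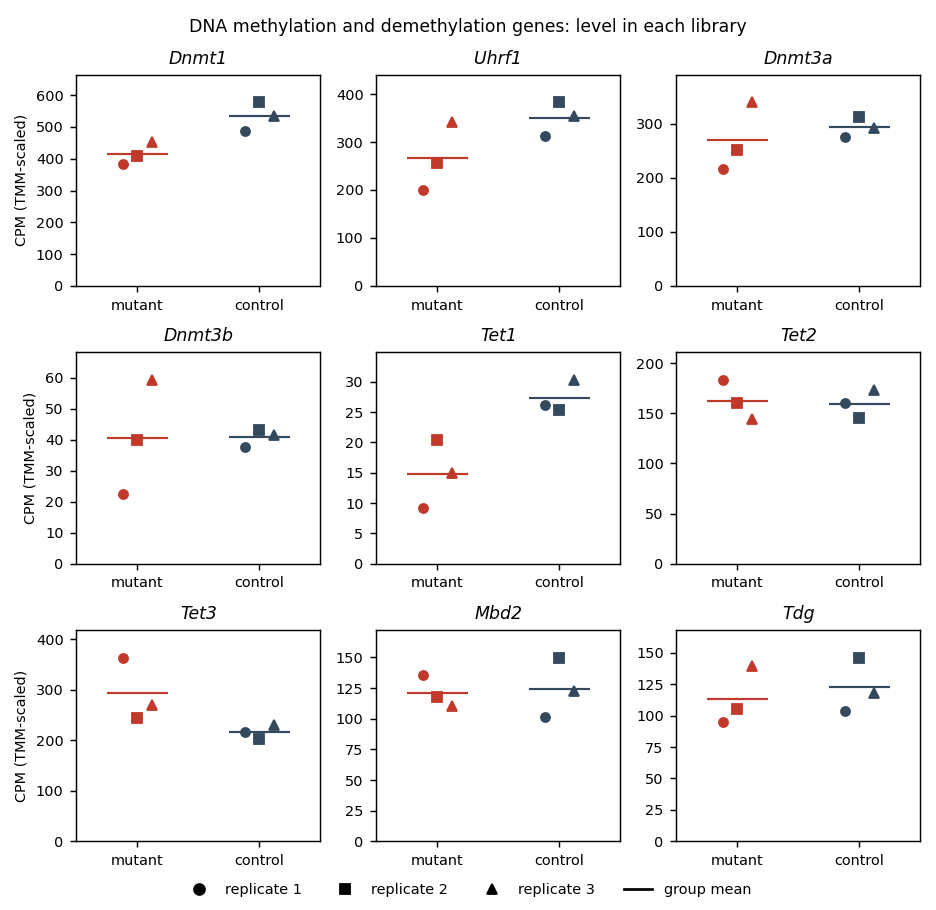
Level of each gene in CPM scaled by TMM (vertical axes from 0) in the 3 mutant and 3 control libraries, with the marker shape giving the replicate and the line the group mean. Dnmt1 and Tet1 lie lower and Tet3 higher in every mutant library, and the other 6 genes overlap between the groups.

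The maintenance pair had lower mean levels in mutant cells, and Dnmt1 did so in every library. Dnmt1 (ENSMUSG00000004099), the maintenance methyltransferase, was at 382, 410 and 452 CPM in mutant 1, 2 and 3 and at 486, 578 and 535 CPM in control 1, 2 and 3. All mutant values lay below all control values, with mutant 3 and control 1 the nearest. The fold, mutant over control, was 0.779 with a 95% interval from 0.622 to 0.974, a log2 fold change of -0.36 ± 0.14 (SE), with unadjusted p = 0.0330 and adjusted p = 0.645 in edgeR's quasi-likelihood test. Uhrf1 (ENSMUSG00000001228), which recognises hemimethylated sites and recruits Dnmt1, was at 200.8, 257 and 342 CPM in mutant libraries and at 312, 383 and 354 CPM in control libraries. Mutant 1 and mutant 2 lay below all controls, and mutant 3 lay within the control range. In edgeR the log2 fold change came to -0.39 ± 0.21 (SE), the 95% interval running from -0.87 to 0.088, with adjusted p = 0.712. Without mutant 3 it was -0.62, with no overlap, and without mutant 1 it was -0.21.

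Uhrf1 and Dnmt1 serve replicating DNA, and the letters of their promoters are shown because E2F factors drive many genes of S phase. The E2F words searched were TTTCCCGC, TTTCGCGC, TTTGCCGC and TTTGGCGC, on both strands, in the 250 bases before each start in the RefSeq promoter table (GRCm38.p6). Of 32851 promoter entries 1.86% held such a word. The 8 members with an entry had 13 entries, of which 2 held a word. Capitals mark the word in the lines here.

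Uhrf1, chr17:56304063-56304312, + strand: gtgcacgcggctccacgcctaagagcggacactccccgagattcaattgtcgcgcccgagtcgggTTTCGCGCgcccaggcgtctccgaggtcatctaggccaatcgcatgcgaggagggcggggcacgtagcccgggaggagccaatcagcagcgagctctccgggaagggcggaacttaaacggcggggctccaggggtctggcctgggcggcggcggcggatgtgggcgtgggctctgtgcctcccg

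Dnmt1, chr9:20952980-20953229, - strand: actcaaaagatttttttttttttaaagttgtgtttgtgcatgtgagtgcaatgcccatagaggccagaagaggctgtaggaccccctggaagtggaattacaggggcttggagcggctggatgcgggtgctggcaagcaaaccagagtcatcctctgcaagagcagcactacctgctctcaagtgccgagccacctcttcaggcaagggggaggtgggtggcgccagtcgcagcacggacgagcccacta

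The Uhrf1 stretch has 30 CG pairs, more than 94.1% of entries have, and its E2F word begins 185 bases before the start. The Dnmt1 stretch has 7 CG pairs and no such word. Another Dnmt1 entry held the word GCGCGAAA, the same motif on the opposite strand, 219 bases before its start. It has 26 CG pairs, more than 90.4% of entries have, but 166 of its 250 bases are annotated as exon and it is not printed. The remaining Dnmt1 entry has 2 CG pairs and the other Uhrf1 entry 10, and neither held a word. The difference between the printed stretches thus depends on which entry of each gene is shown. Counted per gene, 5 of 21 genes of the replication list and 2.16% of all genes with an entry held a word. A word is a match of letters, not a measured binding site.

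Dnmt1 and Uhrf1 were also set against replication genes in the same library. The replication list holds 26 genes such as Pcna, the Mcm helicase and the DNA polymerases, and its mean level relative to the control mean was -0.52, -0.32 and 0.016 on the log2 scale in mutant 1, 2 and 3. In control 1, 2 and 3 it was -0.13, 0.15 and -0.017. Mutant 1 and mutant 2 thus had lower replication transcripts than any control, and mutant 3 lay among the controls. The log2 ratio of Dnmt1 to the list mean was 2.03, 1.92 and 1.73 in mutant 1, 2 and 3 and 1.98, 1.95 and 2.00 in control libraries, a mean difference of -0.085 with overlap. That difference was -0.15 without mutant 1 and -0.0021 without mutant 3. For Uhrf1 the log2 ratio to the list mean was 1.10, 1.25 and 1.32 in mutant libraries and 1.34, 1.35 and 1.41 in control libraries, a mean difference of -0.14 without overlap, mutant 3 and control 1 being close together. Without mutant 1 it was -0.081. The log2 ratio of Uhrf1 to Dnmt1 was -0.93, -0.67 and -0.40 in mutant libraries and -0.64, -0.59 and -0.60 in control libraries. The pair was thus held in nearly constant proportion in controls (SD 0.026) and spread out in mutant libraries (SD 0.26), with mutant 1 and mutant 3 on either side of the controls. These ratios were not tested.

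**Figure D2:**
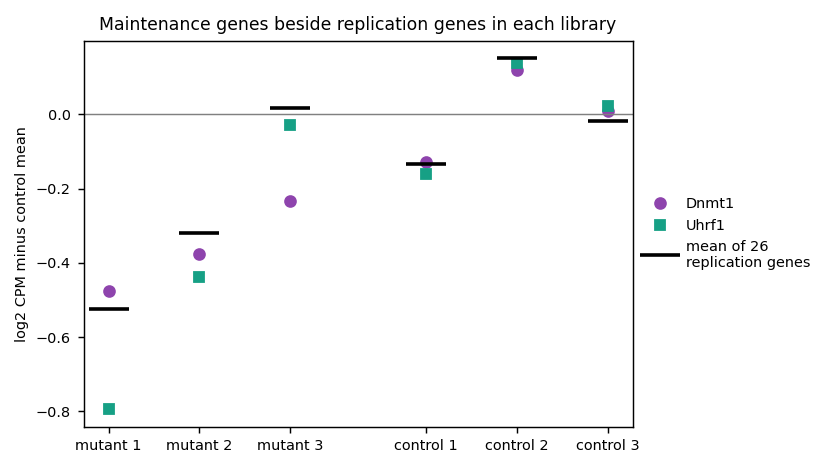
Dnmt1 and Uhrf1 (points) and the mean of 26 replication genes (bars) in each library, as log2 CPM minus the mean of the 3 control libraries. All 3 measures are lowest in mutant 1, and in mutant 3 the replication mean is 0.016 and lies among the controls while Dnmt1 is below every control.

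The de novo methyltransferases did not differ between the groups beyond the spread of the mutant libraries. Dnmt3a (ENSMUSG00000020661), the main de novo enzyme of mature T cells, was at 216, 251 and 340 CPM in mutant 1, 2 and 3 and at 275, 312 and 292 CPM in control 1, 2 and 3. Mutant 1 and mutant 2 lay below and mutant 3 above all controls. EdgeR put the log2 fold change at -0.12 ± 0.19 (SE), the 95% interval at -0.55 to 0.31 and the adjusted p at 0.872, and without mutant 1 the fold change was 0.026. Dnmt3b (ENSMUSG00000027478), its relative most used in the early embryo, was at 22.6, 39.7 and 59.3 CPM in mutant libraries and at 37.5, 43.2 and 41.4 CPM in control libraries. The mutant values spanned 798 to 2181 counts and enclosed all control values. EdgeR put the log2 fold change at -0.0069 ± 0.31 (SE), with adjusted p = 0.995, and its 95% interval, -0.72 to 0.71, would allow a change of either sign. Without mutant 1 it was 0.30, and without mutant 3 it was -0.39. By CPM per kb, Dnmt3a made up 18.8%, 19.2% and 21.9% of the summed level of the 3 methyltransferases in mutant libraries and 18.4%, 17.8% and 17.9% in control libraries. The groups did not overlap in this share, which was computed after the values of the genes had been seen and was not tested.

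Among the TET dioxygenases, Tet1 was lower and Tet3 higher in every mutant library, and Tet2 overlapped. Tet1 (ENSMUSG00000047146) was at 9.18, 20.5 and 14.9 CPM in mutant 1, 2 and 3 and at 26.1, 25.3 and 30.3 CPM in control 1, 2 and 3. Mutant 1 was the lowest and mutant 2 the nearest to the controls. The fold, mutant over control, was 0.545 (95% interval from 0.349 to 0.851), the largest of the 9 in size, with a log2 fold change of -0.88 ± 0.28 (SE), unadjusted p = 0.0139 and adjusted p = 0.629 in edgeR. It was 397th of all genes by p. DESeq2 gave it an adjusted p of 0.193. It is the gene of the 9 with the fewest counts, and its lowest library still held 325 (exact 95% Poisson interval from 290.6 to 362.3, counting error only), so counting error is small beside the spread between libraries. Left out one at a time, the 6 libraries gave log2 fold changes from -1.16 without mutant 2 to -0.61 without mutant 1 in edgeR. Without mutant 2, DESeq2 called Tet1, with a log2 fold change of -1.20 and an adjusted p of 0.0174, as 1 of 143 genes called (0.786%), while edgeR's adjusted p was 0.673. Without any other library DESeq2's adjusted p for Tet1 ran from 0.124 to 1.00.

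Tet3 (ENSMUSG00000034832) was at 364, 244 and 271 CPM in mutant 1, 2 and 3 and at 217, 202 and 231 CPM in control 1, 2 and 3. Mutant 1 stood highest, and mutant 2 lay just above control 3. The fold was 1.35 (95% interval from 1.02 to 1.79), a log2 fold change of 0.43 ± 0.18 (SE), with unadjusted p = 0.0388 and adjusted p = 0.645 in edgeR. Without mutant 1 it was 0.26. Tet2 (ENSMUSG00000040943), which with Tet3 is needed for demethylation of the Foxp3 enhancer in mouse Tregs, was at 183, 160 and 144 CPM in mutant libraries and at 160, 145 and 173 CPM in control libraries. The values are interleaved. The fitted log2 difference was 0.028 ± 0.15 (SE), the 95% interval running from -0.31 to 0.37, with edgeR's adjusted p = 0.962.

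**Figure D3:**
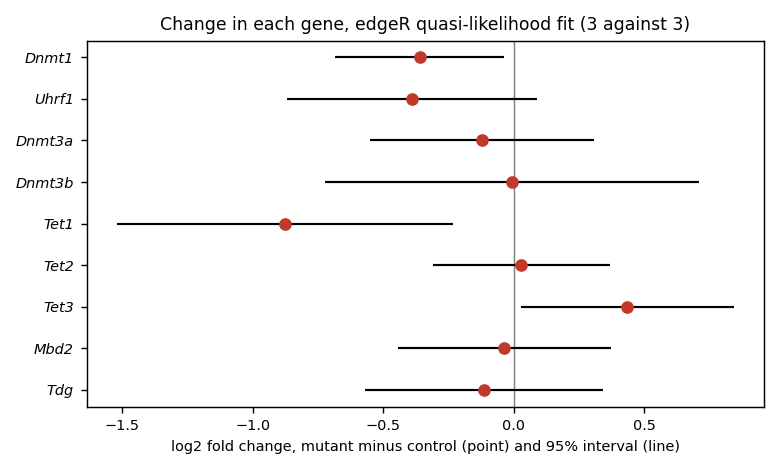
Log2 fold change, mutant minus control, of the 9 genes (points) with 95% intervals (lines) from edgeR's quasi-likelihood fit over 3 mutant and 3 control libraries. The intervals of Dnmt1, Tet1 and Tet3 do not include 0 before adjustment for the 18323 genes tested, and none passed after it.

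The make-up of the TET family separated the groups, as Tet1 and Tet3 each did alone, while its summed level overlapped. Summed CPM of the 3 genes was 556, 425 and 430 in mutant 1, 2 and 3 and 403, 373 and 434 in control 1, 2 and 3, with overlap. By CPM per kb, Tet1 made up 1.79%, 5.20% and 3.75% of the family in mutant libraries and 6.99%, 7.32% and 7.53% in control libraries. Tet2 made up 32.7%, 37.3% and 33.2% in mutant libraries and 39.3%, 38.5% and 39.4% in control libraries. Tet3 made up 65.5%, 57.5% and 63.1% in mutant libraries and 53.7%, 54.2% and 53.1% in control libraries. The log2 ratio of Tet3 to Tet1, which library scaling hardly moves, was 5.30, 3.57 and 4.18 in mutant libraries and between 2.93 and 3.05 in control libraries. The control libraries agreed closely (SD 0.063), and the mean ratio was 2.57-fold higher in mutant cells. With Tet1 below and Tet3 above every control in all mutant libraries, their ratio had to separate the groups and adds no further evidence. Shares within a family also depend on one another, so a larger Tet3 share leaves less for Tet1 and Tet2. These ratios and shares were chosen after the gene values had been seen and carry no test.

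**Figure D4:**
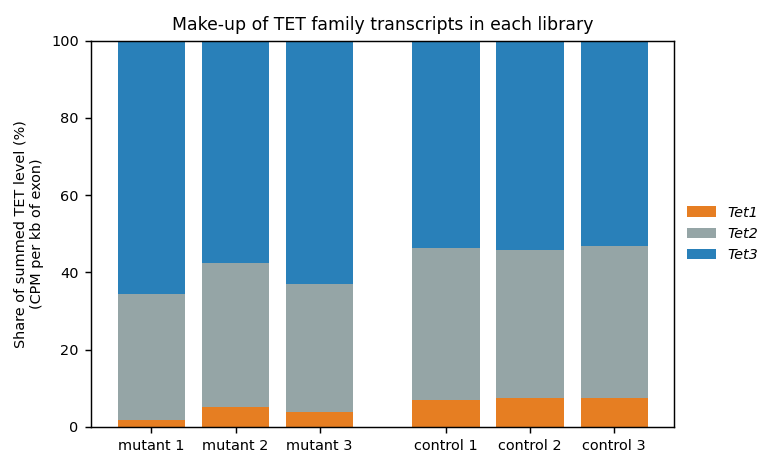
Share of Tet1, Tet2 and Tet3 in the summed CPM per kb of exon of the 3 genes (vertical axis in percent, 0 to 100) in each library, mutant libraries on the left. Tet3 makes up 57.5% to 65.5% in mutant and 53.1% to 54.2% in control libraries, and Tet1 is the smallest part in all 6.

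The reader and the glycosylase gave no difference beyond their spread. Mbd2 (ENSMUSG00000024513) was at 136, 118 and 110 CPM in mutant 1, 2 and 3 and at 101, 150 and 122 CPM in control 1, 2 and 3. The controls enclosed all mutant values, and edgeR put the log2 fold change at -0.037 ± 0.18 (SE), with adjusted p = 0.959 and a 95% interval of -0.44 to 0.37. Tdg (ENSMUSG00000034674) was at 94.5, 106 and 139 CPM in mutant libraries and at 104, 146 and 118 CPM in control libraries. The groups overlapped, with a fitted log2 difference of -0.11 ± 0.20 (SE), a 95% interval of -0.57 to 0.34 and edgeR's adjusted p = 0.888. Tdg has processed copies with nearly the same letters, and 54.4% of the 50-base words of its transcript recur in Tdg-ps and 30.1% in Tdg-ps2, so its reads may be split among them. With both copies added it was at 126, 141 and 181 CPM in mutant libraries and at 132, 192 and 153 CPM in control libraries, again with overlap.

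**Figure D5:**
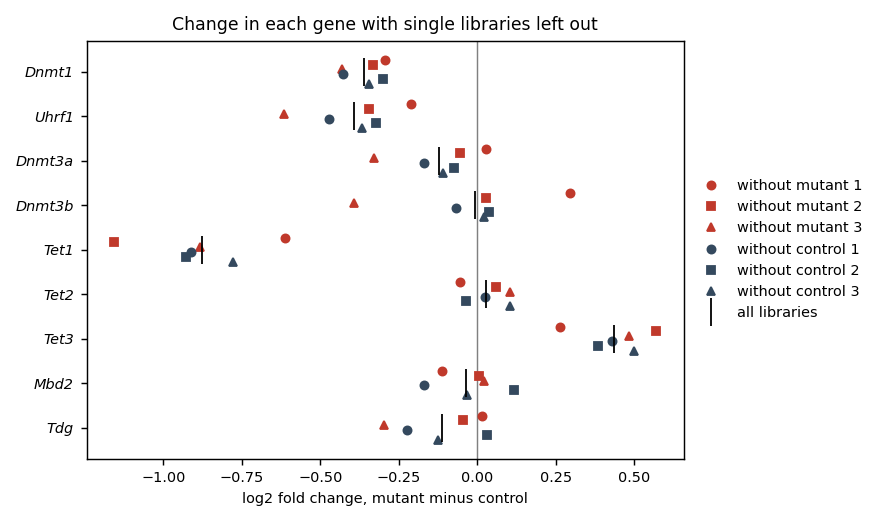
Log2 fold change, mutant minus control, of each gene with all 6 libraries (vertical tick) and with single libraries left out (points, the colour giving the group and the shape the replicate of the library removed). Dnmt1, Uhrf1 and Tet1 stay below 0 and Tet3 above 0 in all 6 fits, and the other 5 genes cross 0.

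Leaving out mutant 1 or mutant 3 moved the members in opposite ways. Without mutant 3, 4 members (Dnmt1, Uhrf1, Dnmt3a and Tet1) lay below every control without overlap, as did 16.1% of all genes. In edgeR 4 members had an unadjusted p under 0.05, where 12.9% of all genes did (2426). These were Dnmt1, Uhrf1 and Tet1, which were lower, and Tet3, which was higher. Both shares over all genes were thus also higher than with 3 mutant libraries. Without mutant 1 there were 2 members below every control (Dnmt1 and Tet1), beside 11.9% of all genes, and Tet1 alone had an unadjusted p under 0.05 (edgeR adjusted p = 0.422), beside 8.32% of all genes. Without control 1, the library that stands apart in its sex-linked genes, the log2 fold changes were -0.43 for Dnmt1, -0.91 for Tet1 and 0.43 for Tet3. Without mutant 2, which had the most Cd79a, they were -0.33, -1.16 and 0.57.

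Among the partners of the 9 genes, differences past an adjusted p of 0.05 were few. Over all genes tested, 7.62% had an unadjusted p under 0.05 in edgeR. All mutant libraries lay below the controls in 7.48% of genes and above them in 6.60%. EdgeR and limma-voom called 0 genes in each of the lists that follow, and DESeq2 called Lig1 alone. Of 6 tested maintenance partners, 2 were higher and 4 lower in mutant cells (median log2 fold change -0.15), and 0 had an unadjusted p under 0.05. Cdca7, which recruits the remodeller Hells to chromatin, was at 77.2, 101 and 144 CPM in mutant 1, 2 and 3 and at 133, 167 and 152 CPM in control 1, 2 and 3, with overlap. Pclaf, a PCNA-bound factor that aids Dnmt1 loading, was at 208, 283 and 280 CPM in mutant and at 286, 385 and 319 CPM in control libraries, without overlap but with mutant 2 and control 1 close together. Zbtb24, a zinc finger gene whose loss in humans lowers methylation near centromeres, was at 32.0, 24.3 and 20.9 CPM in mutant and at 18.5, 19.5 and 19.8 CPM in control libraries, narrowly above every control. Of 12 methyl-CpG readers and subunits of the NuRD repressor complex, 7 were higher and 5 lower (median 0.053), with 0 at an unadjusted p under 0.05 and 0 without overlap. The 3 with the smallest p were Mbd1, Hdac2 and Zbtb38, with log2 fold changes between -0.27 and 0.27.

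Of 17 tested demethylation partners and base excision repair genes, 6 were higher and 11 lower (median -0.13). At an unadjusted p under 0.05 there were 4, 1 of them higher, beside 7.62% of all genes. All mutant libraries lay below the controls in 4, beside 7.48% of all genes, and above them in 2, beside 6.60%. Idh1 and Idh2 make 2-oxoglutarate, the cosubstrate of TET enzymes, in the cytosol and in mitochondria. Idh2 was at 29.2, 33.4 and 32.8 CPM in mutant 1, 2 and 3 and at 45.5, 44.5 and 46.4 CPM in control 1, 2 and 3, a fold of 0.699. Idh1 was at 8.79, 12.8 and 5.92 CPM in mutant and at 15.3, 14.2 and 16.7 CPM in control libraries, a fold of 0.597. Both lay below every control. Ogt, the glycosyltransferase that binds TET proteins, was at 463, 490 and 416 CPM in mutant and at 361, 317 and 368 CPM in control libraries, above every control. EdgeR's quasi-likelihood test gave adjusted p of at least 0.598 for all 3.

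Of 6 genes that supply the methyl donor S-adenosylmethionine, 3 were higher and 3 lower (median -0.096). At an unadjusted p under 0.05 there were 2, both lower, beside 7.62% of all genes. Ahcy, which clears the product that inhibits methyltransferases, was at 77.6, 78.4 and 83.2 CPM in mutant 1, 2 and 3 and at 122.6, 172 and 119 CPM in control 1, 2 and 3. The fold was 0.579 (edgeR adjusted p = 0.598). Mtrr and Mtr, which return homocysteine to methionine, were at 26.03, 36.5 and 44.2 and at 72.7, 75.0 and 86.2 CPM in mutant libraries, and at 46.2, 52.2 and 53.2 and at 91.4, 92.0 and 90.0 CPM in control libraries. In these 3 genes all mutant libraries lay below the controls, as in 7.48% of all genes. Of the 26 replication genes, 25 were lower and 1 higher (median -0.22), where 8639 of all 18323 genes were lower. All mutant libraries lay below the controls in 3 of the 26, beside 7.48% of all genes. The same number had an unadjusted p under 0.05, beside 7.62% of all genes. Lig1, the ligase that seals Okazaki fragments and also binds Uhrf1, was at 114, 115 and 140 CPM in mutant and at 202, 245 and 237 CPM in control libraries. DESeq2 called it, with adjusted p = 0.00534, and edgeR's adjusted p was 0.598. Pole and Pola1 had folds of 0.764 and 0.706. The median of the list was -0.094 without mutant 1 and -0.41 without mutant 3.

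Of 6 Treg genes whose control regions lose methylation in Tregs, 5 were higher and 1 lower in edgeR (median 0.13), with 0 at an unadjusted p under 0.05. The mean log2 level of the list relative to the control mean was 0.050, 0.51 and -0.46 in mutant 1, 2 and 3. In control 1, 2 and 3 it was 0.050, 0.092 and -0.14, so mutant 2 lay above and mutant 3 below every control. Foxp3, named here for its place in the choice of the 9 genes and after its values were seen, was at 230, 118 and 52.3 CPM in mutant 1, 2 and 3 and at 119, 139 and 108 CPM in control 1, 2 and 3. Mutant 1, with the most Foxp3 and Tet3, had the least Dnmt1, Uhrf1, Dnmt3a, Dnmt3b, Tet1 and Tdg, and mutant 3, with the least Foxp3, had the most Dnmt1, Uhrf1, Dnmt3a, Dnmt3b and Tdg of the mutant libraries. The controls were ordered otherwise for all these genes but Tet1. Control 2, with the most Foxp3 of the controls, had their most Dnmt1, Uhrf1, Dnmt3a, Dnmt3b and Tdg and their least Tet3 and Tet1. These are orders of 3 libraries in each group, picked after the values were seen, and were not tested. The interleukin-2 receptor gene Il2ra was at 1935, 2747 and 1791 CPM in mutant and at 2405, 2796 and 2473 CPM in control libraries. Ikzf2 was at 106, 352 and 81.4 CPM in mutant and at 136, 136 and 79.1 CPM in control libraries, and Ikzf4 at 346, 210 and 156 CPM and at 213, 178 and 210 CPM. Both encode Ikaros family factors of Tregs, and all 3 overlapped between the groups.

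The genes most like each member were found by the root mean square difference of log2 CPM, centred over the 6 libraries, among 9771 other genes with a mean log2 CPM of at least 3. For Dnmt1 they were Smc1a, a cohesin subunit, and Acp1, a phosphatase, at 0.026 and 0.028 on the log2 scale. For Uhrf1 they were Naa50, an acetyltransferase subunit, and the histone gene H4c2, both at 0.041. H4c2 is one of many near-identical histone genes, so its counts are uncertain. For Tet1 they were Fdps, an enzyme of the mevalonate pathway, and Gm5873, at 0.078 and 0.096. Fdps was at 47.7, 114 and 83.2 CPM in mutant 1, 2 and 3 and at 148, 122.8 and 164 CPM in control 1, 2 and 3. For Tet3 they were Crebbp, a histone acetyltransferase, and Zfp687, at 0.061 and 0.069, with Crebbp at 390, 276 and 292 CPM in mutant and at 241, 241 and 241 CPM in control libraries. The nearest genes were Usp10 and Ivns1abp for Dnmt3a, Qtrt2 and Rabggtb for Dnmt3b, Usf3 and Clk3 for Tet2, Atp5mpl and Gltp for Mbd2, and Smpd4 and Med29 for Tdg, at 0.026 to 0.067. With 6 libraries and so many candidates, close matches by this measure are easy to find.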

How the data were processed

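The authors deposited estimated counts of reads for each gene, without normalization. The submitters' processing notes name STAR 2.7.8a, Partek, GRCm39 and mm39. No role, annotation or strand setting is given in the sources used here. Antisense neighbours may share reads. Libraries were made from total RNA with ribosomal RNA removed, per the labels' protocols. Counts were rounded. Of 26469 rows, filterByExpr (minimum count 10) kept 18323. edgeR 4.0.16 (R 4.3.3) with TMM scaling and the quasi-likelihood test compared 3 mutant with 3 control libraries over all genes, mutant minus control, without covariates. Two-sided p-values were adjusted over all genes by Benjamini-Hochberg (threshold 0.05). Intervals are 95%. Log2 CPM used a prior count of 2. DESeq2 1.42.0 and limma 3.58.1 (voom) were alternatives, beside other scalings, other filters, unrounded counts, the replicate number as a block and leaving out each library. The procedure was tested on simulated data. Whole-number counts had been assumed when the tests were planned. Exon lengths came from GENCODE M21 (GRCm38) by Ensembl ID, not the authors' build, and promoters from RefSeq by symbol.

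The members and lists were chosen with earlier results of these data known. All members are named, the 3 genes of each list with the smallest p, and the 2 genes nearest each member. Within groups, all pairs of libraries differed by more than sampling noise. Dnmt3l and Cxxc4 were not analysed here.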

Additional observations from a re-analysis of the deposited data

How the results depend on the processing

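With all 6 libraries, no alternative brought a member past the threshold, and neither did edgeR with a library left out. Of 126 member values under these alternatives, 110 kept their direction and 16 turned, all in Dnmt3a, Dnmt3b, Tet2, Mbd2 and Tdg, whose intervals span 0. Upper quartile scaling gave log2 fold changes of 0.032 for Dnmt3b and 0.0050 for Mbd2, and the filter of 1 CPM in 3 samples 0.024 and 5.3e-05; the cause was not tested. Upper quartile scaling moved the median of all genes to 0.057, beside 0.024 with TMM. With single libraries left out in edgeR, log2 fold changes ran from -0.43 to -0.29 for Dnmt1, -0.62 to -0.21 for Uhrf1, -0.33 to 0.026 for Dnmt3a, -0.39 to 0.30 for Dnmt3b, -1.16 to -0.61 for Tet1, -0.055 to 0.11 for Tet2, 0.26 to 0.57 for Tet3, -0.17 to 0.12 for Mbd2 and -0.30 to 0.031 for Tdg. The log2 ratio of Uhrf1 to Dnmt1, mutant minus control, ran from -0.19 to 0.071, and was positive only without mutant 1; to the replication list it ran from -0.15 to -0.0021 for Dnmt1 and -0.19 to -0.081 for Uhrf1. DESeq2 called 99 genes over all, 51 higher and 48 lower, against 0 in edgeR. DESeq2 with single libraries left out, chosen after seeing the data, called 215, 143 and 374 genes without mutant 1, 2 and 3, and 16, 126 and 17 without control 1, 2 and 3. Tet1 was among them without mutant 2 (log2 fold change -1.20, DESeq2 adjusted p = 0.0174) and no other member was in any of these 6 fits. Directions turned there for Dnmt3a (0.00078), Dnmt3b (0.27) and Tet2 (-0.079) without mutant 1, for Tet2 (-0.011) without control 1, and for Dnmt3b (0.049), Tet2 (-0.027), Mbd2 (0.13) and Tdg (0.043) without control 2; the cause was not tested. The replicate number as a block gave 0 calls, 991 genes at an unadjusted p under 0.05, and -0.94 for Tet1 (edgeR adjusted p = 0.902). Same-numbered libraries did not deviate together (r from -0.067 to -0.028) and share only a number. Every member had at least 325 counts in each library, so the spread between libraries, not depth, sets the limits.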
